A study of Danio rerio with 3 samples.

Results

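The miRNAs described here are miR-203 and miR-205, which are best known from the skin. Their members were chosen by name, as every sequence named miR-203 or miR-205, whatever the paralog letter, arm, trimming mark or species prefix. These were 14 of the 1202 distinct sequences in the three-library table, 8 named for miR-203 and 6 for miR-205. Of the 14, 9 had no substitution mark in their name and 5 had one, and the substituted forms were kept apart. Whole larvae were sequenced, so these data do not locate either miRNA in the skin. They could not be checked against marker mRNAs, as the tables hold small RNAs.

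Whole AB strain, wild type zebrafish larvae were collected at 7 days after fertilisation. Their parents had been exposed for 90 days, from 6 hours after fertilisation, to a mixture of β-diketone antibiotics (DKA) at 0 mg/L (the control library below), 6.25 mg/L (the low-dose library) or 12.5 mg/L (the high-dose library). The mixture held 6 antibiotics, ofloxacin (ofluoxacin in the labels), ciprofloxacin, enrofloxacin, doxycycline, chlortetracycline and oxytetracycline in equal weight concentrations, and the labels name exposure of the parents (F0) and none of the larvae (F1). Each of the 3 groups had 1 library, so no difference between groups could be set against a spread of replicates, no test of conditions was possible, and "higher" and "lower" describe libraries.

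miR-203 and miR-205 are small RNAs that lower the output of mRNAs matching their seed, the bases at positions 2 to 8. In mouse skin, miR-203 is made mainly in the cells that have left the basal layer, where it represses the stem cell factor p63. In zebrafish, miR-203 is known from the regrowing fin, where it represses the Wnt factor Lef1. miR-205 is known in mammals from basal cells of the skin and other layered epithelia, and it shares with the miR-200 family the repression of the ZEB factors that loosen epithelia.

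The sequences are taken from the deposited table, written 5′ to 3′ with T for U, and are shown because seeds and paralogs order the results. In the first set the capitals mark the seed.
dre-miR-203b-3p: gTGAAATGttcaggaccacttg
dre-miR-203a-3p: gTGAAATGtttaggaccacttg
aca-miR-203-3p_L-1R+2: tGAAATGTttaggaccacttgtt
dre-miR-203b-5p: aGTGGTTCtcaacagttcaaca
dre-miR-205-5p: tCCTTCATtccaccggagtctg
dre-miR-205-3p: gATTTCAGtggtgtgaagtgta

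The paralogs miR-203a-3p and miR-203b-3p have the same seed and differ at 1 base, T11C, counted from 1 at the 5′ end with the miR-203a-3p base first. The form named for a lizard (aca) starts 1 base later on the miR-203a-3p sequence, so its seed is shifted by 1. It was also the only sequence of the table with that seed. The unshifted miR-203 seed was found in 3 sequences and the miR-205-5p seed in 2, all of them members. The miR-203b-5p sequence also stood in the table under a miR-203a-5p name with a substitution. Only its miR-203b-5p name carries no substitution mark, though the table lists counts for it under both paralogs.

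The minor forms below are shown because their levels differed most between libraries. Here capitals mark the substituted base, or the bases by which a read runs past dre-miR-205-5p.
dre-miR-203b-3p_R+1_1ss10TC: gtgaaatgtCcaggaccacttgc
dre-miR-205-5p_R+1_1ss4TN: tccNtcattccaccggagtctga
oan-miR-205-5p_R+3: tccttcattccaccggagtctgAT

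In the names, R+ and L- give bases added at the 3′ end or missing at the 5′ end relative to the annotated form. The first form carries T10C against dre-miR-203b-3p. The second has an undetermined base (T4N against dre-miR-205-5p), and the third is named for platypus (oan) and runs 24 bases against 22. In the zebrafish annotation of RefSeq (GRCz12tu, used for neighbours only because the submitters' processing notes name Zv9), mir203a lies between aspg and kif26ab and overlaps no other gene. mir203b follows tmem179aa, and the miR-205 gene lies within the span of plxna2, a semaphorin receptor gene.

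Totals over all sequences were 4534557 counts in the control library, 5099264 in the low-dose library and 6041242 in the high-dose library. They count 1 kept row per sequence, and shares of counts and equal totals use the same rows. Counts on other rows of a sequence are left out. Levels are the authors' normalised reads unless stated otherwise, and log2 ratios were taken with a pseudocount of 1. All 95% intervals are exact (Clopper-Pearson) intervals of rounded counts. They cover counting error only, since PCR copies are not separate molecules and since larvae differ. Of the 14 members, 9 averaged at least 10 normalised reads and were compared, 7 without and 2 with a substitution. The T10C form passed this limit only through the high-dose library. The other 5 had means of at most 2.67 and no value above 3.54. They were a miR-203c named for catfish (3.54, 3.06 and 1.42 normalised reads in the order of doses), 1 trimmed miR-205-3p and 3 substituted forms. The catfish-named sequence matched dre-miR-203b-3p at 16 of 22 bases and did not share its seed.

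Both miRNAs were among the most abundant small RNAs of the larva. With unsubstituted forms summed, miR-203-3p took 3.63% of all counts in the control library (3.62 to 3.65), 3.26% at the low dose (3.25 to 3.28) and 3.41% at the high dose (3.40 to 3.43). miR-205-5p took 3.24% (3.23 to 3.26), 2.58% (2.56 to 2.59) and 2.92% (2.91 to 2.94). As a share of counts, both were thus highest in the control library and lowest at the low dose. By level, dre-miR-205-5p ranked 9, 10 and 9 of 1202 in the order of doses and dre-miR-203b-3p ranked 11, 13 and 12.

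**Figure D1:**
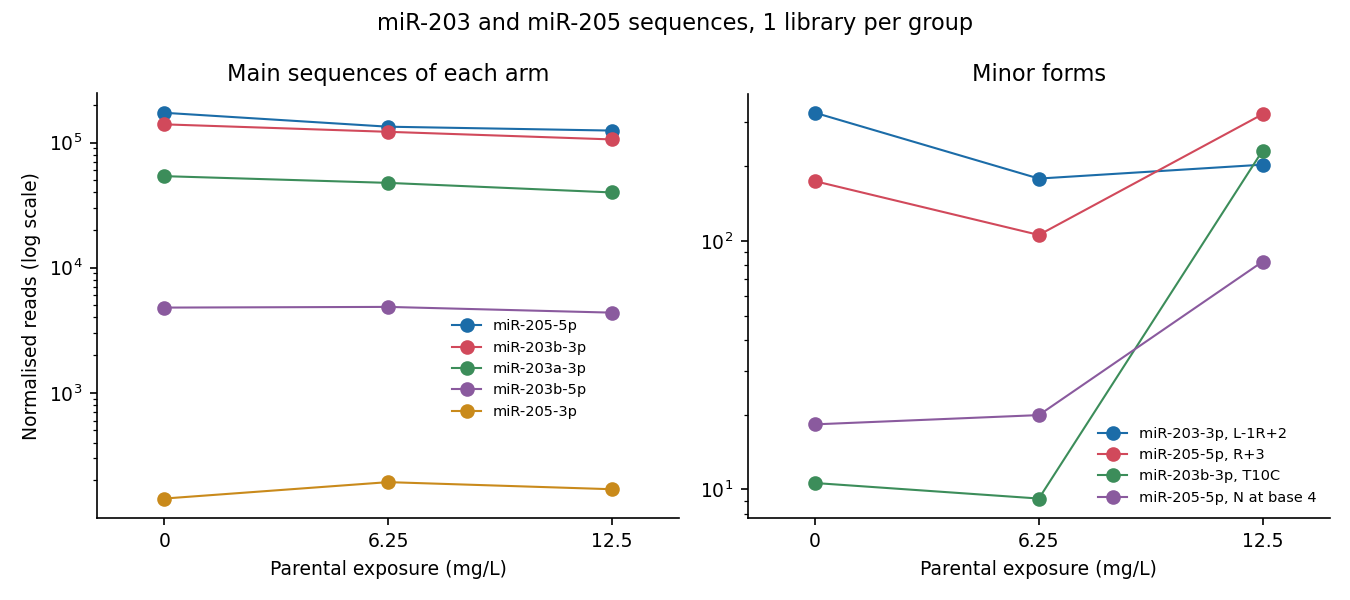
Normalised reads (y axis, log scale) of the 9 compared miR-203 and miR-205 sequences against parental exposure in mg/L (x axis), 1 point per library, with lines that only join points of a sequence. The main sequences miR-205-5p, miR-203b-3p and miR-203a-3p are highest at 0 mg/L, and the T10C form stands at 231 at 12.5 mg/L against 10.6 and 9.19 in the other libraries.

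The main sequences were lower in both libraries from exposed parents than in the control library, by less than 2-fold. dre-miR-203b-3p had 140029 normalised reads in the control library, 122051 at the low dose and 106084 at the high dose. dre-miR-203a-3p had 53956, 47671 and 39977, and dre-miR-205-5p had 173226, 134091 and 124848. All 3 sequences were in the order of doses on this scale, with the control library highest. That order depended on the scale, since as shares of counts the low-dose library was lowest for each of them.

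Against control, miR-205-5p with its forms summed was 1.29-fold lower at the low dose (ratio 0.774, interval 0.768 to 0.780) and 1.39-fold lower at the high dose (0.722, 0.717 to 0.727). miR-203-3p was 1.14-fold lower at the low dose (0.874, 0.868 to 0.880) and 1.33-fold lower at the high dose (0.753, 0.748 to 0.758). Both comparisons use the same control library, so they are not independent of each other. Between the exposed groups, the high-dose library had 1.16-fold less miR-203-3p than the low-dose library (0.861, 0.855 to 0.866) and 1.07-fold less miR-205-5p (0.933, 0.926 to 0.939).

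The scaling set how far apart the libraries were. Scaling to equal totals moved every log2 ratio by 0.04 at the low dose against control, by 0.32 at the high dose against control and by 0.28 between the exposed groups, and it moved the median of the 471 compared sequences from 0.08 to 0.40 at the high dose. Under it, miR-203-3p had log2 ratios of -0.16 and -0.09 against control and miR-205-5p -0.33 and -0.15, all still below 0. Between the exposed groups the sign turned, with 0.07 for miR-203-3p and 0.18 for miR-205-5p against -0.22 and -0.10 on the authors' scale. With the median of ratios, the log2 ratios against control were -0.31 and -0.50 for miR-203-3p and -0.48 and -0.56 for miR-205-5p.

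Set against the median of all 471 sequences in the same comparison, where a common scaling factor nearly cancels, the log2 ratio of miR-203-3p differed by -0.30 at the low dose and -0.49 at the high dose. For miR-205-5p these differences were -0.48 and -0.55. Of the 471 sequences, 66 had a lower log2 ratio than dre-miR-205-5p at the low dose and 71 at the high dose. The numbers were 110 and 95 for dre-miR-203b-3p. The skin miRNAs therefore lay in the lower part of the range in both libraries, and many sequences lay lower still. In whole larvae, fewer cells of a type and less of a miRNA in each cell cannot be told apart.

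**Figure D2:**
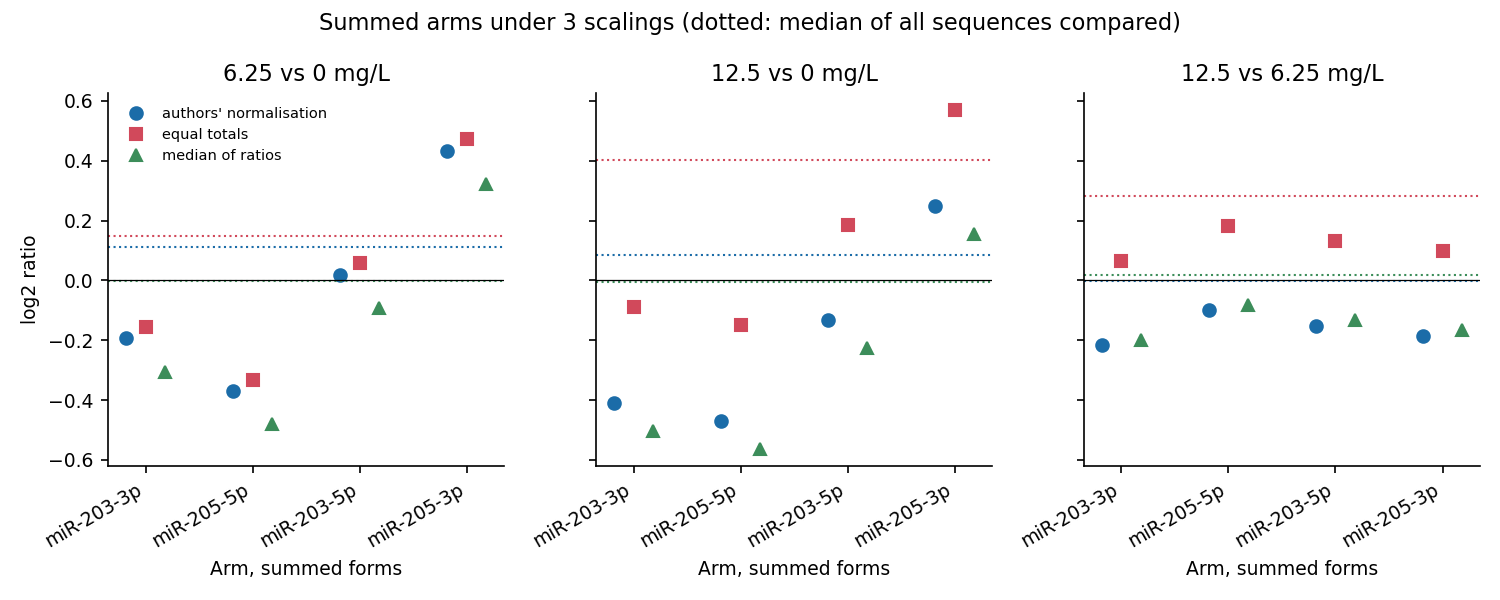
log2 ratio (y axis) of the summed unsubstituted forms of each arm (x axis) in the 3 pairs of libraries, under the authors' normalisation, equal totals and the median of ratios. Dotted lines give the median of the 471 sequences under the scaling of the same colour, and miR-203-3p and miR-205-5p lie below that line in every panel and scaling shown.

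The opposite arms of the same hairpins were scarcer, and on the authors' scale they lay closer to control than the main arms, or above it. dre-miR-203b-5p, the strand that pairs with miR-203-3p in the precursor, had 4799, 4861 and 4373 normalised reads in the control, low-dose and high-dose libraries. These are the levels of 1 kept row of its sequence, which stood on more than 1 row. At the low dose its ratio to control was 1.01 (0.971 to 1.06), which counting error alone could give, and at the high dose it was 0.911 (0.876 to 0.948). With equal totals the high-dose log2 ratio was 0.19 instead of -0.13, so its direction rested on the scaling.

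dre-miR-205-3p had 143, 193 and 169 normalised reads, from 121, 189 and 239 counts. The library of control parents was the lowest. Its ratio to control was 1.35 at the low dose (1.07 to 1.71) and 1.19 at the high dose (0.950 to 1.49), and the second interval includes 1. Its log2 ratio was above 0 at both doses under each of the 3 scalings.

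Ratios taken within a library do not depend on the scaling, and they were chosen after the values had been seen. miR-203-3p outnumbered miR-203b-5p 40.5-fold in the control library (39.3 to 41.8), 35.0-fold at the low dose (34.0 to 36.0) and 33.4-fold at the high dose (32.6 to 34.3). These ratios use 1 kept row of the miR-203b-5p sequence, which stood on more than 1 row. Its summed rows held 8137, 9516 and 12337 counts in the order of doses. Summing doubles its count in every library, so the excess would be smaller and the order of libraries the same. miR-205-5p outnumbered miR-205-3p 1215-fold (1017 to 1464), 695-fold (603 to 806) and 737-fold (648 to 838). For both miRNAs the control library had the largest excess of the main arm, with an interval that overlaps neither of the others. For miR-203 the ratio pools the paralogs, so it does not describe the arms of a single hairpin.

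The ratio of miR-203b-3p to miR-203a-3p stayed within a narrow range. It was 2.60 in the control library (2.57 to 2.62), 2.56 at the low dose (2.53 to 2.59) and 2.65 at the high dose (2.63 to 2.68). These paralogs come from separate genes, and dre-miR-203b-3p held 72.1%, 71.8% and 72.5% of the summed miR-203-3p counts. The ratio of miR-205-5p to miR-203-3p was 0.892 in the control library (0.886 to 0.899), 0.790 at the low dose (0.784 to 0.796) and 0.856 at the high dose (0.850 to 0.861). Against miR-203-3p, miR-205-5p was therefore scarcest in the low-dose library.

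**Figure D3:**
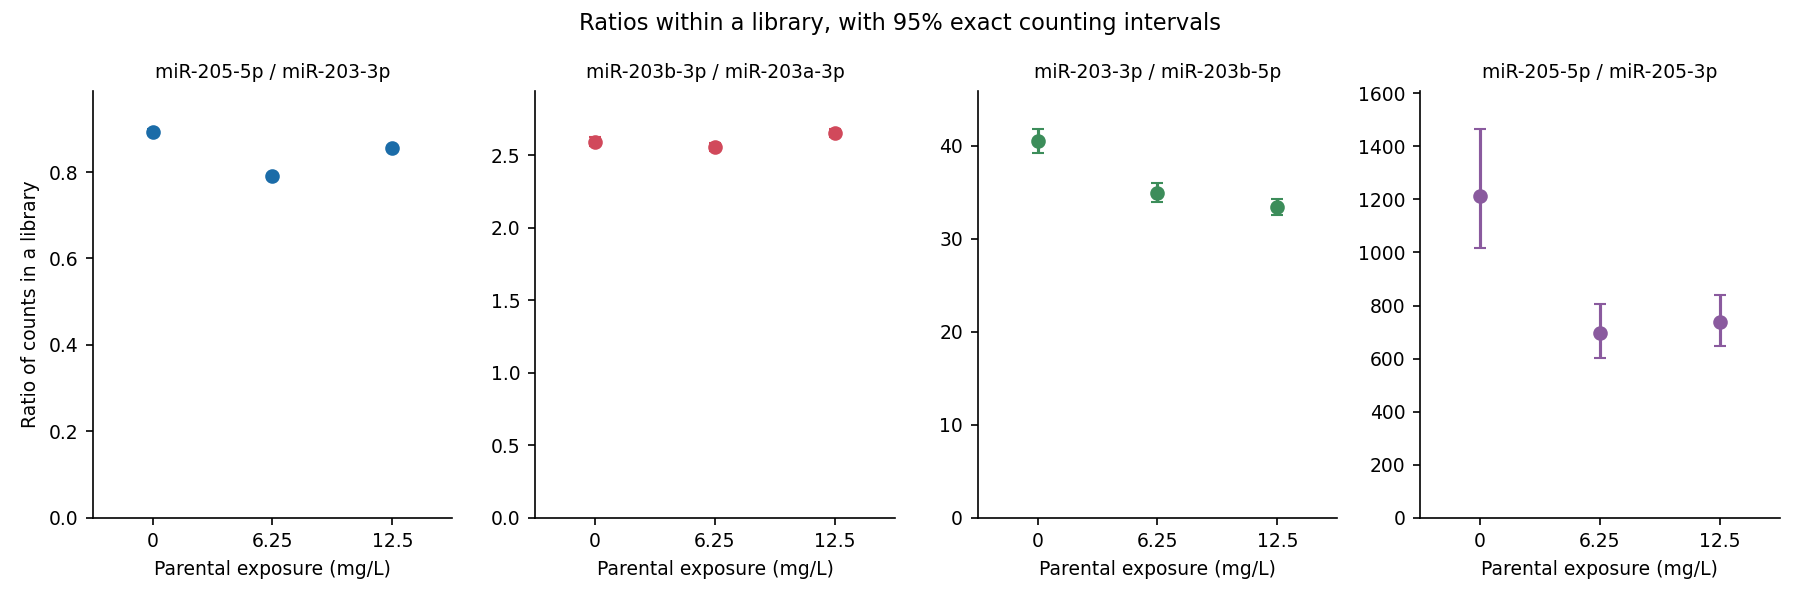
Ratios of raw counts within each library (y axes, from 0) against parental exposure in mg/L (x axis), with 95% exact counting intervals and 1 library per point. The miR-203b-3p to miR-203a-3p ratio lies between 2.56 and 2.65, while miR-205-5p to miR-205-3p goes from 1215 in the control library to 695 and 737 in the others. The miR-203b-5p counts are those of 1 kept row of its sequence.

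At the low dose, 0 of the 9 compared members lay 2-fold or more above control and 0 that far below it, where 2.55% of all 471 sequences lay above and 2.55% below. Without substituted forms the count was 0 of 7 in each direction, beside 1.98% above and 2.83% below of 353 sequences. The 9 members' median log2 ratio was -0.19, beside 0.11 over all sequences. At the high dose, 2 of 9 were at least 2-fold higher, where 10.8% of all were higher, and 0 were at least 2-fold lower, where 4.25% of all were. Both of the higher members were substituted forms. The T10C form was among them, and it was compared only because of its high-dose value. Its place in the counts of higher members at the high dose, here and below, is therefore no separate evidence. Scarce sequences among the 471 can enter in the same way, so the shares of all sequences can carry the same selection. Without substituted forms the count was 0 of 7 in each direction, beside 4.53% higher and 5.10% lower of 353 sequences. The median of these 7 was -0.40, beside 0.01. With equal totals 3 of 9 members were at least 2-fold higher at the high dose, where 18.3% of all were, and the third was the longer, unsubstituted miR-205-5p with a log2 ratio of 1.21. Between the exposed groups 3 of 9 members were at least 2-fold higher at the high dose (11.0% of all) and 0 lower (3.40%), and without substituted forms 1 of 7 was higher (5.38%) and 0 lower (4.53%). With 9 members, these shares cannot be told from the background.

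The 3 members past 2-fold were minor forms, and the high-dose library was the highest in each. The T10C form of miR-203b-3p, 1 base longer at its 3′ end, had 10.6 normalised reads in the control library, 9.19 at the low dose and 231 at the high dose, from 9, 9 and 326 counts. The ratio of the high dose to control was 21.8 (11.3 to 48.0), and that to the low dose was 25.1 (13.1 to 55.5). Relative to the counts of dre-miR-203b-3p, the form stood at 0.00758% (0.00347 to 0.0144), 0.00753% (0.00344 to 0.0143) and 0.218% (0.195 to 0.243).

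The T4N form of miR-205-5p had 18.3, 19.9 and 82.6 normalised reads in the order of doses. It was 4.52-fold higher at the high dose than in control (2.57 to 7.88) and 4.15-fold higher than at the low dose (2.49 to 6.83). Relative to dre-miR-205-5p it stood at 0.0106% (0.00623 to 0.0177), 0.0149% (0.00931 to 0.0235) and 0.0662% (0.0544 to 0.0790). An undetermined base names no base of the molecule.

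Undetermined bases at read position 4 were more common across the whole high-dose library. With the members left out, sequences with an undetermined base at read position 4 made up 0.00476% of counts in the control library, 0.00428% at the low dose and 0.0163% at the high dose. Of the 9 such sequences that averaged at least 10 normalised reads, 7 were at least 2-fold higher at the high dose than in control. Of all 471 sequences, 10.8% were that much higher. The average includes the high-dose library, so a scarce sequence can pass the limit through its high-dose value, and the 7 are no separate evidence. The part of these undetermined bases in the value of the T4N form was not tested. Substituted sequences of any kind outside the 2 families were not most common at the high dose, with 11.4%, 12.7% and 12.1% of counts in the order of doses. Of these, 116 averaged at least 10 normalised reads, under the same limit. At the high dose 33 of them were at least 2-fold higher than in control and 2 that far lower. Over all 471 sequences the shares were 10.8% and 4.25%.

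The longer miR-205-5p had 174 normalised reads in the control library, 106 at the low dose and 324 at the high dose. It went the other way from the main sequence at the high dose, with a ratio to control of 1.86 (1.54 to 2.24), and it was 3.06-fold higher than at the low dose (2.45 to 3.80). At the low dose it was lower than control, at a ratio of 0.608 (0.469 to 0.787). Relative to dre-miR-205-5p, it stood at 0.100% (0.0852 to 0.118), 0.0789% (0.0647 to 0.0960) and 0.259% (0.236 to 0.284). It was too scarce to move the arm, since dre-miR-205-5p held 99.9%, 99.9% and 99.7% of the summed unsubstituted counts. By their median log2 ratio, other long forms also lay higher in the high-dose library. They were the 48 compared unsubstituted sequences outside both families whose names add 2 or more bases at the 3′ end. Their median log2 ratio was 0.42 to control and 0.46 to the low dose. At least 2-fold higher were 8 and 11 of them, beside 4.53% and 5.38% of 353 unsubstituted sequences. At the low dose against control their median was -0.25, beside 0.11 over the 353. The limit for comparison averages over the high-dose library too, so a scarce long form can pass it through its high-dose value. With scarcer forms included, all unsubstituted long forms outside both families took 14.38%, 11.98% and 14.93% of counts in the order of doses. By this share the high-dose library was close to control, and the low-dose library was lowest. The part of these differences among other long forms in the values of the longer miR-205-5p was not tested.

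The shifted-seed form of miR-203-3p had 328 normalised reads in the control library, 178 at the low dose and 202.8 at the high dose. Its ratio to control was 0.544 at the low dose (0.446 to 0.657) and 0.618 at the high dose (0.522 to 0.732), so it was further below control than the unshifted paralogs. Of the 471 sequences, 15 had a lower log2 ratio at the low dose and 44 at the high dose. Relative to dre-miR-203a-3p, whose sequence it carries, it stood at 0.608% (0.538 to 0.684), 0.374% (0.319 to 0.433) and 0.507% (0.450 to 0.570). Against that main form, the low-dose library was lowest and its interval overlapped neither of the others. These levels and percentages use 1 kept row of the shifted-seed sequence, which stood on more than 1 row. Its summed rows held 556, 349 and 572 counts in the order of doses. With them the percentages would be higher in every library.

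**Figure D4:**
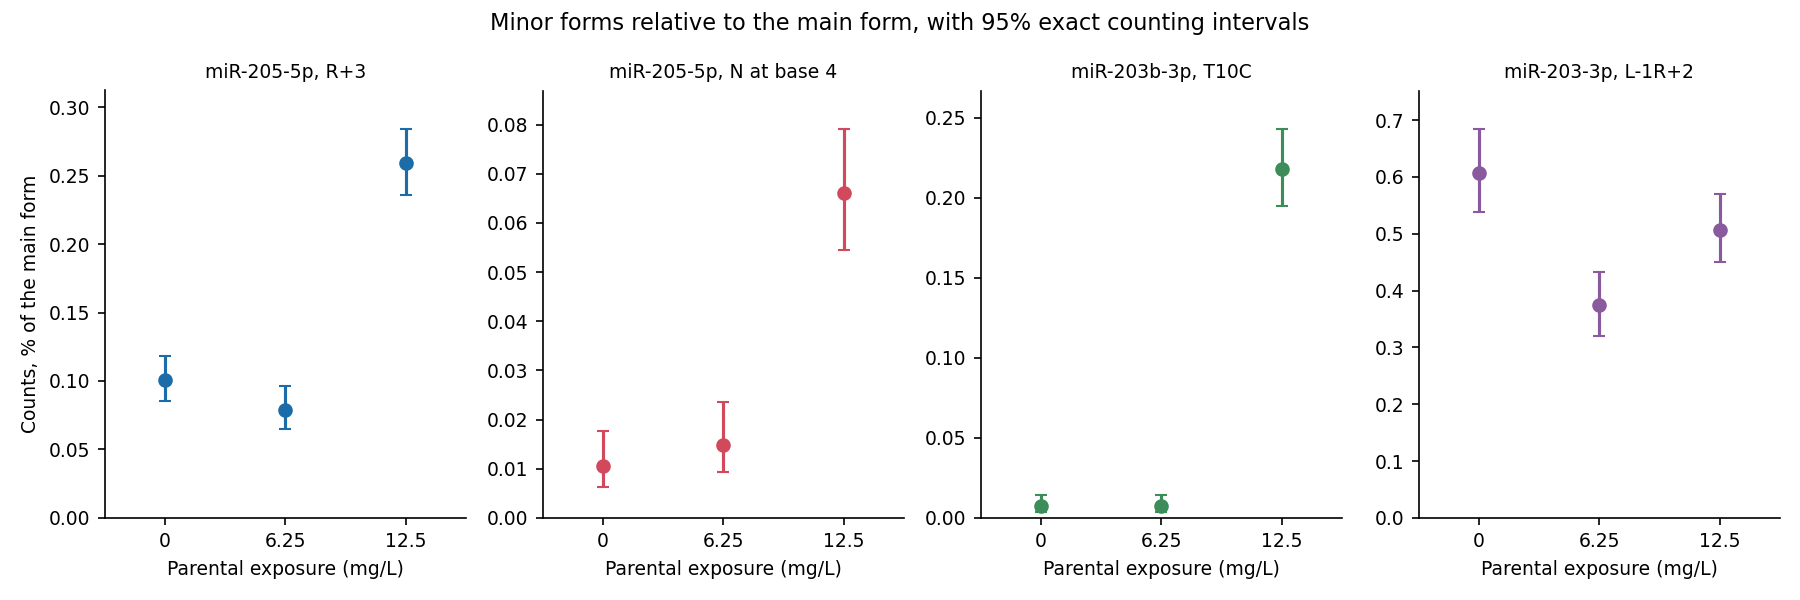
Counts of each minor form as a percentage of the counts of its main form in the same library (y axes, from 0) against parental exposure in mg/L (x axis), with 95% exact counting intervals and 1 library per point. The R+3, undetermined-base and T10C forms are highest at 12.5 mg/L, at 0.259%, 0.0662% and 0.218%, and the L-1R+2 form is lowest at 6.25 mg/L, at 0.374%. The L-1R+2 counts are those of 1 kept row of its sequence.

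Of the most abundant sequences of 5 other epithelial families, 4 had higher levels at the low dose than in control and that of miR-141 a lower one. The median log2 ratio of all 471 sequences was 0.11 in that comparison. dre-miR-200a-3p with 1 added base, a miRNA of many epithelia, had 120711 normalised reads in the control library, 126889 at the low dose and 107644 at the high dose. dre-miR-192 with 1 added base, known from gut and kidney epithelium, had 222060, 269097 and 181383. The others named were aca-miR-194-5p (20453, 22465 and 22671), dre-miR-429b (818, 911 and 1252) and dre-miR-141-5p (107, 91.9 and 112). No miR-215 sequence was analysed here. Of the 7 unsubstituted sequences of miR-200, miR-141 and miR-429, 1 was at least 2-fold higher at the low dose and 0 lower, with a median log2 ratio of 0.07, and at the high dose 0 passed 2-fold, with a median of 0.07. For the 5 of miR-192 and miR-194 the medians were 0.04 and -0.10, with 0 past 2-fold at the low dose and 1 higher at the high dose. In the same order, the medians over 353 unsubstituted sequences were 0.11 and 0.01. Of these 353, 1.98% were at least 2-fold higher and 2.83% that far lower at the low dose. At the high dose the shares were 4.53% and 5.10%.

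Summed miR-203-3p and miR-205-5p counts were 2.66 times those of unsubstituted miR-200, miR-141 and miR-429 in the control library (2.64 to 2.67), 2.10 times at the low dose (2.09 to 2.12) and 2.11 times at the high dose (2.10 to 2.12). Against miR-192 and miR-194 the ratios were 1.51 (1.50 to 1.52), 1.04 (1.03 to 1.04) and 1.32 (1.32 to 1.33). The control library thus had the most skin miRNA relative to either list, and these ratios do not depend on the scaling. They also reflect the lists, which differed between libraries and count 1 kept row per sequence. As shares of counts, miR-200, miR-141 and miR-429 took 2.59%, 2.78% and 3.00% in the order of doses. For miR-192 and miR-194 the shares were 4.55%, 5.62% and 4.79%.

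Lists for other tissues also differed between libraries. As a share of counts, 11 unsubstituted sequences of miR-124, miR-128 and miR-137 of neurons took 1.09% in the control library, 1.67% at the low dose and 2.12% at the high dose, and 3 of miR-122 of liver took 0.351%, 0.471% and 0.305%. The 13 of the muscle miRNAs miR-1, miR-133, miR-206 and miR-499 took 2.21%, 2.34% and 2.89% (their main miR-1 and miR-206 forms were not analysed here), and the 11 of miR-140, miR-199 and miR-214 of cartilage and mesenchyme 1.94%, 2.24% and 2.38%. The part of such differences in the lower skin miRNA level was not tested.

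Among 187 unsubstituted sequences outside both families with zebrafish names and averages of at least 100 normalised reads, the nearest to dre-miR-203b-3p in their pair of log2 ratios to control (a distance over 3 libraries) was dre-miR-107b_R+1, at 0.06 on the log2 scale. It was followed by dre-miR-30d_R+2 (0.08), dre-miR-196b (0.10), dre-miR-30c-3p (0.10) and dre-miR-92a-3p (0.14). The paralog dre-miR-203a-3p lay at 0.04, nearer than any of these. Nearest to dre-miR-205-5p was dre-miR-190a_R+1 at 0.04, and dre-miR-196b, dre-miR-30d_R+2, dre-miR-30c-3p and dre-miR-92a-3p followed at 0.09 to 0.12. dre-miR-203b-3p and dre-miR-205-5p were 0.19 apart, which is farther than either was from any of its 5 nearest sequences.

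In the authors' deposited table of 3 libraries, 9 of the 14 members had a chi-square p-value below 0.05, and these were the 9 compared here. In the authors' deposited tables of pairs, Fisher p-values were below 0.05 for 7 of 14 members between the low-dose and control libraries, 9 between high dose and control and 8 between the doses. These compare single libraries, not conditions, and the totals behind them are not stated in the sources used here. The share of all sequences below 0.05 was not counted here, so these counts do not set the members apart from other sequences. For dre-miR-203b-5p between the low-dose and control libraries, the authors' deposited table gave a Fisher p-value of 0.0220 beside a ratio of 1.01.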

How the data were processed

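Small RNAs of 3 libraries were read as 36 bp single-end reads from TruSeq libraries on an Illumina HiSeq, per the labels' protocols. The aligner, the counter and the miRNA database were not given in the sources used here, and the submitters' processing notes name the build Zv9. The authors deposited, per the file headers, raw values, here treated as estimated counts (74.7% whole), and normalised values, a signal equal to the count times 1 factor per library (1.18, 1.02 and 0.709 in the order of doses). They also deposited p-values, a ratio (fold) and a log2 fold value for pairs of libraries. Each of the 4 tables has 1 emptied line, and member values did not differ between tables.

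The 1430 rows were reduced to 1202 sequences, keeping the most abundant row and, in a tie, the row without a substitution. Counts were rounded for the intervals (Python 3.11.15, SciPy 1.17.1). Each group had 1 library and therefore no test, and calls mean at least 2-fold. Every member is accounted for, and from other lists the most abundant unsubstituted sequence of each family is named. The 5 most alike sequences were chosen by distance. Members and lists were chosen with earlier results of these data known. Interval code was tested on simulated data. Alternatives were a pseudocount of 0.5 or 10, equal totals, the median of ratios, no filter, zebrafish names only, and leaving out or adding substituted forms.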

Additional observations from a re-analysis of the deposited data

How the results depend on the processing

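No paired analysis was possible because each group has 1 library, and no library could be left out. A pseudocount of 0.5 or 10, zebrafish names only and added substituted forms turned the direction of 0 of the 12 log2 ratios of summed arms. Equal totals turned 5 of 12 and the median of ratios 1 of 12. In the order 6.25 against 0, 12.5 against 0 and 12.5 against 6.25 mg/L, equal totals gave -0.16, -0.089 and 0.066 for miR-203-3p and -0.33, -0.15 and 0.18 for miR-205-5p. For miR-203-5p it gave 0.19 at 12.5 against 0 and 0.13 at 12.5 against 6.25 mg/L. The median of ratios gave -0.31, -0.50 and -0.20 for miR-203-3p, -0.48, -0.56 and -0.082 for miR-205-5p, and -0.093 and -0.23 against control for miR-203-5p. Of the 27 log2 ratios of single sequences, equal totals turned 6 and the median of ratios 1, and both pseudocounts 0. A pseudocount of 10 lowered that of the T10C form at 12.5 against 0 mg/L from 4.32 to 3.55. The shifts by scaling follow from the library factors. The members' median log2 ratio at 12.5 against 0 mg/L (-0.13) became 0.19 with equal totals, 0.21 with no filter and -0.40 without substituted forms, and at 12.5 against 6.25 mg/L (-0.10) it became 0.18 with equal totals and 0.31 with no filter. Leaving out substituted forms, which removes 2 sequences, took members at least 2-fold higher from 2 to 0 at 12.5 against 0 mg/L and from 3 to 1 at 12.5 against 6.25 mg/L. Summing rows of the same sequence doubles 2 members, dre-miR-203b-5p and the shifted-seed form, as their rows held equal counts. Some counts on the kept rows are not whole, with 4068.5 and 6168.5 for dre-miR-203b-5p and 174.5 for the shifted-seed form. The summed rows held whole counts of 8137, 12337 and 349, as reads divided evenly between rows would give. The sources used here do not state how reads were divided. If they were divided, the levels given above for these 2 members are too low. Counts of 9 limit the T10C ratios.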
